A study of Mus musculus with 2 samples.

Results

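The data describe 10 genes of lipid handling that are known from macrophages, read in myeloid (CD11b+) cells of the gum: Apoe, Abca1, Cd36, Olr1, Lpl, Fabp4, Fabp5, Plin2, Gpnmb and Lgals3. They are 10 of the 32285 genes listed in the count matrices of single-cell RNA sequencing and were chosen by name. Cells were kept at 500 or more unique molecular identifiers (UMIs, counts of single captured transcripts), 250 or more genes and at most 10% mitochondrial UMIs. The filter left 9596 cells in the 10% Tet2-/- BMT library and 11672 cells in the 10% Tet2+/+ BMT library.

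Both groups were mice after bone marrow transplantation (BMT), named by the labels as 10% Tet2-/- BMT and 10% Tet2+/+ BMT. Tet2 is a DNA demethylation enzyme that is often lost in clonal blood cell expansion. Ligature-induced periodontitis, a gum inflammation provoked by a thread around a tooth, was applied to both for 5 days, 12 weeks after transplantation. The series text gives a sort for CD45.2+CD11b+ cells in 10% Tet2-/- BMT and for CD45+CD11b+ cells in 10% Tet2+/+ BMT, whereas both sample titles name CD45.2+CD11b+. How many mice were pooled, the source of the other marrow and the sex of donors and recipients are not stated in what was available, and no file marks which cells carry the deletion. With 1 library per group the spread between animals is unknown, so differences are described without a test or a p-value. Intervals in the text are exact 95% intervals and cover counting error only.

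Macrophages take up lipoproteins and the remains of dead cells through scavenger receptors and break them down in lysosomes. The fatty acids are carried by binding proteins, surplus lipid is stored in droplets, and cholesterol leaves the cell through transporters that load it onto apolipoproteins. Several of these genes are turned on by the sterol-sensing receptors LXR or by PPAR gamma, and the set is known from foam cells of arteries and from lipid-laden macrophages of fat tissue.

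In all, 93919724 UMIs were counted in 10% Tet2-/- BMT and 100782700 UMIs in 10% Tet2+/+ BMT, with a median of 5920 UMIs per kept cell in 10% Tet2-/- BMT and 5009 in 10% Tet2+/+ BMT, and 31 barcodes occurred among the kept cells of both. Cells were clustered without the 10 genes and named from marker lists that also leave them out. The macrophage-like class held 740 cells of 10% Tet2-/- BMT and 775 of 10% Tet2+/+ BMT, and 16 of its 17 listed markers reached 10 CPM (the UMIs of a gene over all UMIs of its class, scaled up to the same total in every class) in each library. Free RNA was read in barcodes with 1 to 50 UMIs. Tet2 was at 64.7 CPM in macrophage-like cells of 10% Tet2-/- BMT and at 69.1 CPM in those of 10% Tet2+/+ BMT; the assay counts transcript ends and the deleted part is not given, so this value checks nothing about the genotype.

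The 10 genes did not share 1 cell class, and only some fitted the name of macrophage genes. Macrophage-like cells held 72.5% of the Apoe UMIs of all kept cells in 10% Tet2-/- BMT and 69.9% in 10% Tet2+/+ BMT, while they held 9.71% of all UMIs in 10% Tet2-/- BMT and 8.43% in 10% Tet2+/+ BMT. For Abca1 the share was 42.2% in 10% Tet2-/- BMT and 34.3% in 10% Tet2+/+ BMT, and for Lpl it was 29.1% in 10% Tet2-/- BMT and 45.9% in 10% Tet2+/+ BMT. The largest share of Olr1 came from neutrophil-like cells, with 53.4% of its UMIs in 10% Tet2-/- BMT and 44.6% in 10% Tet2+/+ BMT. These cells are many, and their Olr1 level in 10% Tet2-/- BMT was 56.9 CPM, against 29.35 CPM over all kept cells. In 10% Tet2+/+ BMT it was 25.1 CPM, against 17.9 CPM over all kept cells. Fabp4 came mostly from non-classical monocyte-like cells, with 61.2% in 10% Tet2-/- BMT and 65.6% in 10% Tet2+/+ BMT. For Lgals3, monocyte-like cells held 43.0% in 10% Tet2-/- BMT and 35.4% in 10% Tet2+/+ BMT. Their Lgals3 level was 2300 CPM against 1047 CPM over all kept cells in 10% Tet2-/- BMT, and 2196 CPM against 873.2 CPM in 10% Tet2+/+ BMT. Among genes with 50 CPM in either class and 100 UMIs over both, and with 10 CPM added to both levels, 5 of 8 were at least 1.5-fold higher in macrophage-like than in neutrophil-like cells of 10% Tet2-/- BMT, beside 45.8% of 3134 genes. In 10% Tet2+/+ BMT these were 5 of 7, beside 44.3% of 3184 genes. Apoe, Abca1, Cd36 and Lpl were among them in both libraries, joined by Fabp5 in 10% Tet2-/- BMT and by Plin2 in 10% Tet2+/+ BMT.

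**Figure D1:**
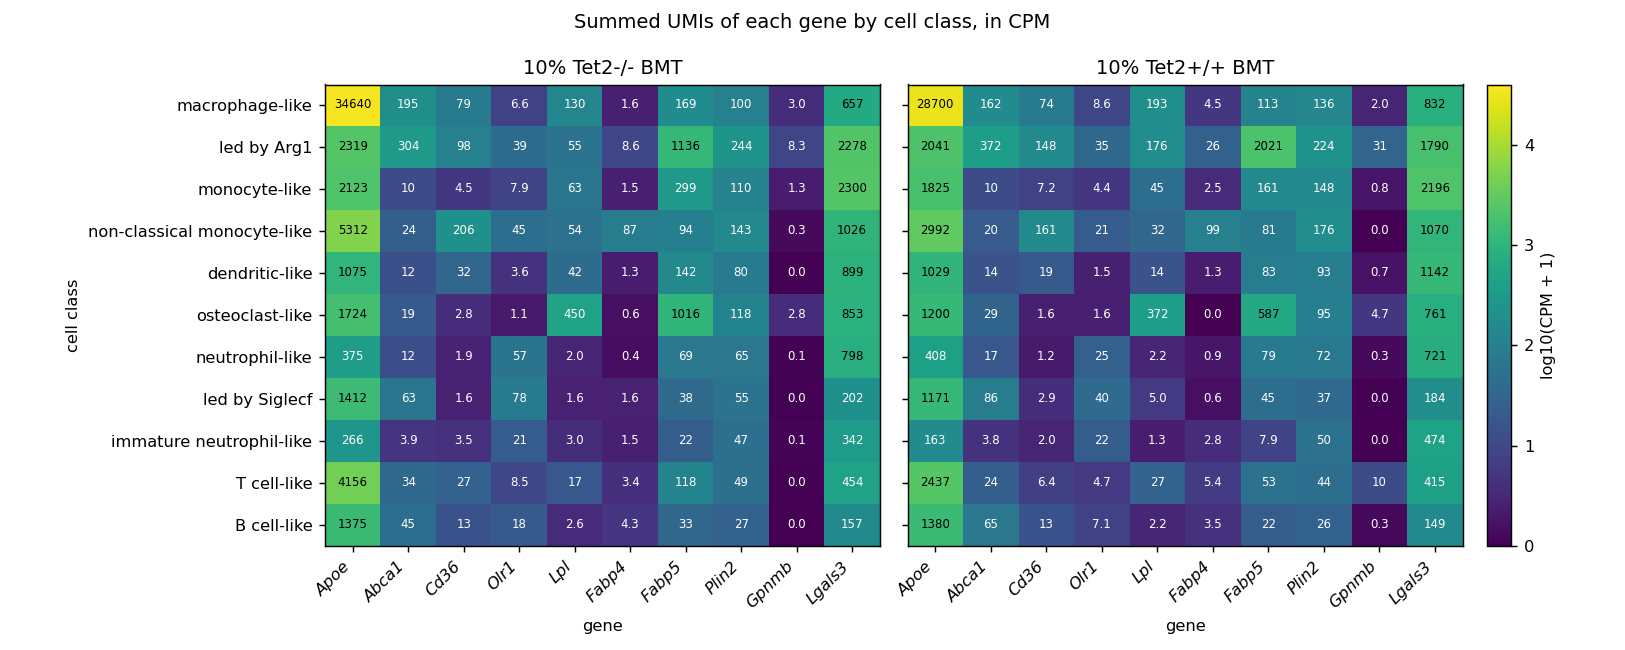
Level of each of the 10 genes (columns) in 11 cell classes (rows), as CPM of the summed UMIs of the class, with 10% Tet2-/- BMT on the left and 10% Tet2+/+ BMT on the right and colour on the scale log10(CPM + 1). Apoe is highest in macrophage-like cells at 34640 CPM in 10% Tet2-/- BMT and 28700 CPM in 10% Tet2+/+ BMT, Fabp4 is highest among these classes in non-classical monocyte-like cells, and Lpl in osteoclast-like cells.

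Cholesterol export was read from Apoe and Abca1. Apoe (ENSMUSG00000002985, chr7:19696109-19699188 of GRCm38, minus strand) encodes the apolipoprotein that macrophages secrete and that accepts cholesterol. It was at 34640 CPM (34510 to 34770) in macrophage-like cells of 10% Tet2-/- BMT and at 28700 CPM (28580 to 28820) in those of 10% Tet2+/+ BMT. The next class in order was a cluster led by Ccl8, at 10060 CPM in 10% Tet2-/- BMT and 8711 CPM in 10% Tet2+/+ BMT. Its best list was neutrophil, with 7 markers, and the macrophage markers C1qa, C1qb and C1qc were among its leading genes. Doublets were not removed. Non-classical monocyte-like cells followed at 5312 CPM (5232 to 5392) in 10% Tet2-/- BMT and 2992 CPM (2940 to 3044) in 10% Tet2+/+ BMT. These first 3 classes kept their order in both libraries with intervals apart, while monocyte-like cells, at 2123 CPM in 10% Tet2-/- BMT and 1825 CPM in 10% Tet2+/+ BMT, had neighbours whose intervals met theirs. Macrophage-like over neutrophil-like cells, the fold was 92.5 (90.5 to 94.5) in 10% Tet2-/- BMT and 70.4 (69.1 to 71.7) in 10% Tet2+/+ BMT.

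Apoe UMIs were present in nearly every class, and free RNA carried it at 7035 CPM in 10% Tet2-/- BMT and 4982 CPM in 10% Tet2+/+ BMT. With cells thinned to 1000 UMIs, 94.1% of macrophage-like cells of 10% Tet2-/- BMT and 93.3% of those of 10% Tet2+/+ BMT had an Apoe UMI. So did 45.1% of B cell-like cells of 10% Tet2-/- BMT and 43.0% of those of 10% Tet2+/+ BMT, a share that is read as background, since B cells are not known for Apoe. Unthinned, the share in 10% Tet2-/- BMT was 99.6% of macrophage-like cells, at a median of 10810 UMIs, and 81.6% of B cell-like cells, at a median of 5317 UMIs. In 10% Tet2+/+ BMT it was 98.2% of macrophage-like cells, at a median of 8855 UMIs, and 84.5% of B cell-like cells, at a median of 5314 UMIs. T cell-like cells ranked high at 4156 CPM in 10% Tet2-/- BMT and 2437 CPM in 10% Tet2+/+ BMT, but 5 cells held 36.4% of that in 10% Tet2-/- BMT and 37.8% in 10% Tet2+/+ BMT, and the median cell with any Apoe had 5 UMIs.

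Abca1 (ENSMUSG00000015243, chr4:53030787-53159895, minus strand) encodes the membrane transporter that hands cholesterol to lipid-poor apolipoproteins and is a known LXR target. Its highest level was not in the macrophage-like class but in a cluster led by Arg1, Spp1 and Ccl22, with 313 cells in 10% Tet2-/- BMT and 79 in 10% Tet2+/+ BMT. There it was at 304 CPM (286.3 to 322.5) in 10% Tet2-/- BMT and 371.6 CPM (334.8 to 411.3) in 10% Tet2+/+ BMT. Macrophage-like cells came second with 195 CPM (185.6 to 204.8) in 10% Tet2-/- BMT and 162 CPM (153 to 171.4) in 10% Tet2+/+ BMT. Both steps down in this order exceeded the counting intervals in each library. Free RNA held Abca1 at 43.6 CPM in 10% Tet2-/- BMT and 35.7 CPM in 10% Tet2+/+ BMT. Next in 10% Tet2-/- BMT were 34 epithelial-like cells at 99.6 CPM (72.1 to 134.2), which had 47.3 CPM in 10% Tet2+/+ BMT. Lower in the order stood a cluster led by Siglecf with neutrophil markers, at 62.7 CPM in 10% Tet2-/- BMT and 85.6 CPM in 10% Tet2+/+ BMT, and B cell-like cells at 45.5 CPM in 10% Tet2-/- BMT and 65.2 CPM in 10% Tet2+/+ BMT, with overlapping intervals between them in 10% Tet2-/- BMT and intervals apart in 10% Tet2+/+ BMT. Monocyte-like cells had 10.4 CPM in each library, so the fold of macrophage-like over monocyte-like cells was 18.7 (16.0 to 22.0) in 10% Tet2-/- BMT and 15.6 (12.96 to 18.8) in 10% Tet2+/+ BMT. With cells thinned to 1000 UMIs, 28.0% of cells led by Arg1 and 17.0% of macrophage-like cells of 10% Tet2-/- BMT had an Abca1 UMI, and 25% and 16.7% of those of 10% Tet2+/+ BMT, against 5.52% of B cell-like cells in 10% Tet2-/- BMT and 5.40% in 10% Tet2+/+ BMT. Within the macrophage-like class a small, shallow cluster led by Hpgds, with 18 cells in 10% Tet2-/- BMT and 42 in 10% Tet2+/+ BMT, had Abca1 at 511.9 CPM (298.2 to 819.5) in 10% Tet2-/- BMT and 480.2 CPM (339.8 to 659.1) in 10% Tet2+/+ BMT, and Apoe at 12040 CPM in 10% Tet2-/- BMT and 6900 CPM in 10% Tet2+/+ BMT.

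Uptake was read from the scavenger receptors Cd36 and Olr1. Cd36 (ENSMUSG00000002944, chr5:17781690-17888801, minus strand) encodes a receptor for oxidised lipoproteins and long-chain fatty acids. Non-classical monocyte-like cells had the highest level, 205.5 CPM (190 to 221.8) in 10% Tet2-/- BMT and 161.2 CPM (149.3 to 173.7) in 10% Tet2+/+ BMT. The cluster led by Arg1 followed at 98.3 CPM in 10% Tet2-/- BMT and 148.4 CPM in 10% Tet2+/+ BMT, where its interval met that of the non-classical class. Of the Cd36 UMIs in that cluster, 5 cells held 30.3% in 10% Tet2-/- BMT and 75.8% in 10% Tet2+/+ BMT. Macrophage-like cells were at 78.9 CPM (72.9 to 85.1) in 10% Tet2-/- BMT and 74.2 CPM (68.1 to 80.7) in 10% Tet2+/+ BMT. A UMI of Cd36 was found in 62.3% of non-classical monocyte-like cells of 10% Tet2-/- BMT and 55.2% of those of 10% Tet2+/+ BMT, against 5.22% of B cell-like cells in 10% Tet2-/- BMT and 4.47% in 10% Tet2+/+ BMT. With cells thinned to 1000 UMIs, these shares were 17.4% of non-classical monocyte-like and 0.92% of B cell-like cells in 10% Tet2-/- BMT, and 17.5% and 0.559% in 10% Tet2+/+ BMT. Other monocyte-like cells had 4.49 CPM in 10% Tet2-/- BMT and 7.19 CPM in 10% Tet2+/+ BMT, which is below the free RNA at 18.1 CPM in 10% Tet2-/- BMT and 15.2 CPM in 10% Tet2+/+ BMT.

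Olr1 (ENSMUSG00000030162, chr6:129485244-129507165, minus strand) encodes LOX-1, a lectin-like receptor for oxidised low-density lipoprotein. In macrophage-like cells it was near the floor, at 6.64 CPM (55 UMIs) in 10% Tet2-/- BMT and 8.63 CPM (64 UMIs) in 10% Tet2+/+ BMT, below the free RNA at 21.2 CPM in 10% Tet2-/- BMT and 14.3 CPM in 10% Tet2+/+ BMT. Among whole classes, with neutrophil-like clusters pooled, the highest levels were in those led by Siglecf and Obp1a, at 77.9 CPM (65.7 to 91.7) and 77.5 CPM (62.4 to 95.2) in 10% Tet2-/- BMT, and at 39.6 CPM (35.1 to 44.4) and 55.1 CPM (39.9 to 74.3) in 10% Tet2+/+ BMT, with intervals that met. Neutrophil-like cells had 56.9 CPM (53.9 to 60.0) in 10% Tet2-/- BMT and 25.1 CPM (23.3 to 27.0) in 10% Tet2+/+ BMT, so that the fold of macrophage-like over neutrophil-like cells was 0.117 (0.0875 to 0.153) in 10% Tet2-/- BMT and 0.344 (0.262 to 0.445) in 10% Tet2+/+ BMT. With cells thinned to 1000 UMIs, 5.81% of neutrophil-like cells of 10% Tet2-/- BMT and 2.73% of those of 10% Tet2+/+ BMT had an Olr1 UMI, against 0.614% of B cell-like cells in 10% Tet2-/- BMT and 0.372% in 10% Tet2+/+ BMT. Unthinned, the shares in 10% Tet2-/- BMT were 17.1% of neutrophil-like cells, at a median of 4192 UMIs, and 7.36% of B cell-like cells. In 10% Tet2+/+ BMT they were 8.50% of neutrophil-like cells, at a median of 4077 UMIs, and 4.28% of B cell-like cells. Among neutrophil-like clusters, the one led by the chemokine gene Ccl3 stood highest, with 180.8 CPM (165.1 to 197.7) in 10% Tet2-/- BMT and 154.9 CPM (130.3 to 182.8) in 10% Tet2+/+ BMT, which differed by less than their intervals. Those led by Acod1 had 112.9 CPM (102.8 to 123.7) in 10% Tet2-/- BMT and 58.4 CPM (50.1 to 67.7) in 10% Tet2+/+ BMT. At the other end, neutrophil-like cells led by the granule gene Mmp8 had 8.43 CPM in 10% Tet2-/- BMT and 4.73 CPM in 10% Tet2+/+ BMT. Olr1 therefore spanned a wide range within neutrophil-like cells, and the interferon-gene cluster led by Ifit1 lay between, at 80.9 CPM (62.2 to 103.5) in 10% Tet2-/- BMT and 31.3 CPM (25.1 to 38.5) in 10% Tet2+/+ BMT.

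**Figure D2:**
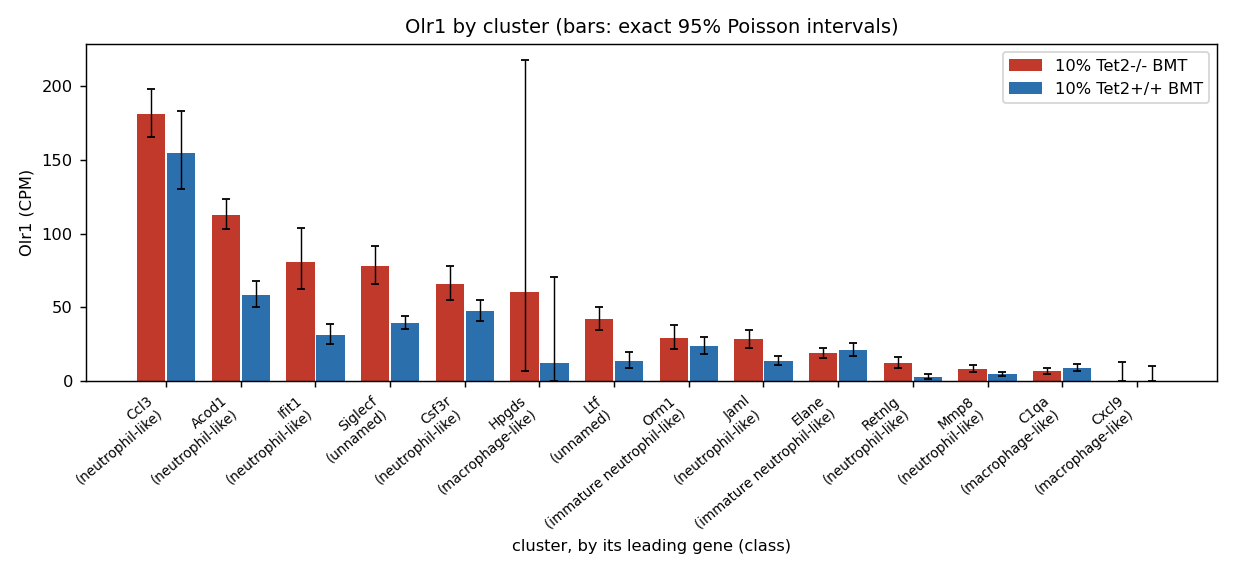
Olr1 level in CPM (bars, with exact 95% Poisson intervals) in the clusters of the neutrophil, immature neutrophil and macrophage classes and in the unnamed clusters led by Siglecf and Ltf, with 10% Tet2-/- BMT in red and 10% Tet2+/+ BMT in blue. The cluster led by Ccl3 reaches 180.8 CPM in 10% Tet2-/- BMT and 154.9 CPM in 10% Tet2+/+ BMT, the macrophage cluster led by C1qa 6.65 CPM in 10% Tet2-/- BMT and 9.02 CPM in 10% Tet2+/+ BMT.

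Lpl (ENSMUSG00000015568, chr8:68880491-68907448, plus strand) encodes lipoprotein lipase, which frees fatty acids from triglyceride-rich lipoproteins. Osteoclast-like cells, the bone-resorbing type, had the highest level in both libraries, 450.1 CPM (419.5 to 482.3) over 38 cells of 10% Tet2-/- BMT and 371.5 CPM (338.9 to 406.5) over 26 cells of 10% Tet2+/+ BMT. These cells were deep, with a median of 44980 UMIs in 10% Tet2-/- BMT and 46680 UMIs in 10% Tet2+/+ BMT, and 5 of them held 41.5% of the Lpl UMIs in 10% Tet2-/- BMT and 55.0% in 10% Tet2+/+ BMT. Macrophage-like cells were at 130.4 CPM (122.8 to 138.4) in 10% Tet2-/- BMT and 193 CPM (183.1 to 203.3) in 10% Tet2+/+ BMT. In 10% Tet2+/+ BMT that interval met the one of the cluster led by Arg1. Neutrophil-like cells were at 2.00 CPM in 10% Tet2-/- BMT and 2.18 CPM in 10% Tet2+/+ BMT, so Lpl separated these classes by a fold of 65.3 (48.7 to 89.4) in 10% Tet2-/- BMT and 88.7 (68.6 to 116.6) in 10% Tet2+/+ BMT.

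The fatty acid chaperones Fabp4 and Fabp5 lay in different cells although both genes sit on chromosome 3. Fabp4 (ENSMUSG00000062515, chr3:10204088-10208576, minus strand), well known from adipocytes and endothelium as well as macrophages, was near absent from macrophage-like cells, at 1.57 CPM (13 UMIs) in 10% Tet2-/- BMT and 4.45 CPM (33 UMIs) in 10% Tet2+/+ BMT. Non-classical monocyte-like cells had 86.9 CPM (77.0 to 97.8) in 10% Tet2-/- BMT and 99.3 CPM (90.02 to 109.3) in 10% Tet2+/+ BMT, and a UMI was found in 37.4% of these cells in 10% Tet2-/- BMT and 40.1% in 10% Tet2+/+ BMT, against 1.23% and 1.30% of B cell-like cells. Thinned to 1000 UMIs, the shares of non-classical monocyte-like cells were 8.30% in 10% Tet2-/- BMT and 10.4% in 10% Tet2+/+ BMT, against 0.307% and 0.186% of B cell-like cells. Of 9 adipocyte markers, 5 were at 0 in that class in both libraries, Adipoq, Plin1, Cfd, Cidec and Lep, and the list summed to 108.2 CPM in 10% Tet2-/- BMT and 116.6 CPM in 10% Tet2+/+ BMT. Most of that sum was Acsl1, at 77.2 CPM in 10% Tet2-/- BMT and 77.3 CPM in 10% Tet2+/+ BMT, and Lipe, at 28.2 CPM in 10% Tet2-/- BMT and 33.7 CPM in 10% Tet2+/+ BMT. Of 7 endothelial markers, Cdh5 and Cldn5 were at 0 in both libraries, and the list summed to 36.4 CPM in 10% Tet2-/- BMT and 44.3 CPM in 10% Tet2+/+ BMT, with Flt1 at 24.5 CPM in 10% Tet2-/- BMT and 28.9 CPM in 10% Tet2+/+ BMT. In macrophage-like cells the adipocyte list summed to 130.8 CPM in 10% Tet2-/- BMT and 130.3 CPM in 10% Tet2+/+ BMT, and the endothelial list to 14.6 CPM in 10% Tet2-/- BMT and 21.04 CPM in 10% Tet2+/+ BMT. Their part in the Fabp4 level was not tested. An epithelial-like cluster also read Fabp4, at 104.3 CPM in 10% Tet2-/- BMT and 47.3 CPM in 10% Tet2+/+ BMT, but these UMIs came from 1 cell of 10% Tet2-/- BMT and 3 cells of 10% Tet2+/+ BMT.

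Fabp5 (ENSMUSG00000027533, chr3:10012548-10016607, plus strand), which encodes a fatty acid carrier first known from skin, was highest in the cluster led by Arg1, at 1136 CPM (1102 to 1172) in 10% Tet2-/- BMT and 2021 CPM (1934 to 2111) in 10% Tet2+/+ BMT. Osteoclast-like cells were second with 1016 CPM (969.5 to 1064) in 10% Tet2-/- BMT and 587 CPM (545.8 to 630.5) in 10% Tet2+/+ BMT. In 10% Tet2-/- BMT monocyte-like cells had 298.8 CPM and macrophage-like cells 168.7 CPM, and in 10% Tet2+/+ BMT monocyte-like cells had 160.6 CPM and macrophage-like cells 112.6 CPM. In each library Fabp5 was therefore lower in macrophage-like than in monocyte-like cells, by a fold of 0.565 (0.532 to 0.599) in 10% Tet2-/- BMT and 0.701 (0.646 to 0.761) in 10% Tet2+/+ BMT. Free RNA held Fabp5 at 240.2 CPM in 10% Tet2-/- BMT, above macrophage-like and below monocyte-like cells. In 10% Tet2+/+ BMT it was at 119.9 CPM (105.6 to 135.7), below monocyte-like cells and with an interval that held the macrophage-like level.

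Plin2 (ENSMUSG00000028494, chr4:86648386-86670060, minus strand) encodes perilipin 2, the coat protein of lipid droplets outside fat cells. The cluster led by Arg1 was first with 244.1 CPM (228.2 to 260.7) in 10% Tet2-/- BMT and 224.1 CPM (195.8 to 255.4) in 10% Tet2+/+ BMT, and non-classical monocyte-like cells came second with 143.4 CPM in 10% Tet2-/- BMT and 175.6 CPM in 10% Tet2+/+ BMT. Macrophage-like cells, at 100.5 CPM (93.8 to 107.5) in 10% Tet2-/- BMT and 135.6 CPM (127.3 to 144.2) in 10% Tet2+/+ BMT, had intervals that met those of monocyte-like cells at 110.5 CPM (105.5 to 115.6) in 10% Tet2-/- BMT and 148.4 CPM (141.7 to 155.3) in 10% Tet2+/+ BMT. Their fold over monocyte-like cells was slightly below 1, at 0.909 (0.837 to 0.988) in 10% Tet2-/- BMT and 0.9135 (0.845 to 0.987) in 10% Tet2+/+ BMT. Neutrophil-like cells were at 64.7 CPM in 10% Tet2-/- BMT and 71.9 CPM in 10% Tet2+/+ BMT, and the lowest class, NK cell- or ILC-like cells, at 20.04 CPM in 10% Tet2-/- BMT and 25.9 CPM in 10% Tet2+/+ BMT.

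Gpnmb (ENSMUSG00000029816, chr6:49036546-49070929, plus strand), a lysosomal glycoprotein that marks foamy macrophages in other tissues, was barely detected. It had 86 UMIs in all kept cells of 10% Tet2-/- BMT and 119 in those of 10% Tet2+/+ BMT. Macrophage-like cells read 3.02 CPM (25 UMIs in 6 cells) in 10% Tet2-/- BMT and 2.02 CPM (15 UMIs in 7 cells) in 10% Tet2+/+ BMT. The level of 10.4 CPM in T cell-like cells of 10% Tet2+/+ BMT rested on 1 cell that held 40 of 42 UMIs. Its highest level, in the cluster led by Arg1, was 8.28 CPM (30 UMIs) in 10% Tet2-/- BMT and 30.9 CPM (31 UMIs) in 10% Tet2+/+ BMT, where 1 cell held 24 of them. Gpnmb could thus not be compared between the libraries at this depth.

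Lgals3 (ENSMUSG00000050335, chr14:47367751-47386160, plus strand) encodes galectin-3, a sugar-binding protein of phagocytes. It was at 2300 CPM (2277 to 2323) in monocyte-like cells of 10% Tet2-/- BMT and 2196 CPM (2170 to 2222) in those of 10% Tet2+/+ BMT, against 657.4 CPM (640.1 to 675.1) and 831.8 CPM (811.2 to 852.9) in macrophage-like cells of the same libraries. In 10% Tet2-/- BMT the cluster led by Arg1 did not differ from monocyte-like cells beyond the intervals, at 2278 CPM (2230 to 2328), while in 10% Tet2+/+ BMT it was lower at 1790 CPM (1708 to 1875). A fold of 0.286 (0.278 to 0.294) in 10% Tet2-/- BMT and 0.379 (0.368 to 0.390) in 10% Tet2+/+ BMT placed Lgals3 lower in macrophage-like than in monocyte-like cells. Free RNA held Lgals3 at 1036 CPM in 10% Tet2-/- BMT, above macrophage-like cells. In 10% Tet2+/+ BMT it was at 806.7 CPM (768.7 to 846.0), an interval that met theirs.

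Some of the 10 genes were detected in the same cells. For this, cells were thinned to 5000 UMIs and shallower cells left out, which kept 594 macrophage-like cells of 10% Tet2-/- BMT and 510 of 10% Tet2+/+ BMT. Among those of 10% Tet2-/- BMT, Cd36 was found in 31.6% (24.3 to 39.6) of cells with Lpl and 17.2% (13.8 to 21.04) of cells without, and in 10% Tet2+/+ BMT in 35.5% (27.1 to 44.8) and 12.9% (9.69 to 16.6). Abca1 was found in 63.7% (54.6 to 72.2) of Cd36-positive and 47.7% (43.1 to 52.3) of Cd36-negative cells of 10% Tet2-/- BMT, and in 64.5% (53.9 to 74.2) and 44.8% (40 to 49.8) of those of 10% Tet2+/+ BMT. Lpl was found in 23.4% (18.8 to 28.6) of Abca1-positive and 27.8% (22.8 to 33.4) of Abca1-negative cells of 10% Tet2-/- BMT, and in 21.9% (16.9 to 27.5) and 25.5% (20.3 to 31.2) of those of 10% Tet2+/+ BMT, with intervals that met. The uptake receptor Cd36 was thus found more often in cells with the lipase and in cells with the exporter, while lipase and exporter were not found together more often.

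The droplet gene Plin2 went with Abca1 in one class and against it in another. In macrophage-like cells of 10% Tet2-/- BMT, 41.0% (33.3 to 49.0) of cells with Plin2 and 54.7% (49.9 to 59.5) of cells without it had Abca1, and in those of 10% Tet2+/+ BMT 38.01% (30.7 to 45.7) and 53.7% (48.2 to 59.1). In the cluster led by Arg1, 74.5% (64.9 to 82.6) of cells with Plin2 and 44.4% (35.8 to 53.2) of cells without it had Abca1 in 10% Tet2-/- BMT, and 79.2% (57.9 to 92.9) and 34.2% (20.1 to 50.6) in 10% Tet2+/+ BMT. The order of the shares was opposite between the classes and equal between the libraries. Cells of 1 library are not replicates, and this difference was not tested. The cluster led by Arg1 mixes kinds of cells, which are split below. Unthinned, its cells with Arg1 and no Ccr7 had Abca1 in 87.4% and Plin2 in 73.1% in 10% Tet2-/- BMT. In 10% Tet2+/+ BMT these were 93.3% and 73.3%. Its cells with Ccr7 and no Arg1 had 18.9% and 28.3% in 10% Tet2-/- BMT, and 13.3% and 20% in 10% Tet2+/+ BMT. The part of this mixture was not tested.

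The stretches just upstream of the RefSeq starts of Abca1, Plin2 and Olr1 are shown since Abca1 and Plin2 share a highest class and Olr1 has the neutrophil pattern. Each is 250 bases of GRCm38.p6, 5′ to 3′ on the minus strand, ending at the base before the start, with matches to a searched motif in capitals.
Abca1, chr4:53159896-53160145: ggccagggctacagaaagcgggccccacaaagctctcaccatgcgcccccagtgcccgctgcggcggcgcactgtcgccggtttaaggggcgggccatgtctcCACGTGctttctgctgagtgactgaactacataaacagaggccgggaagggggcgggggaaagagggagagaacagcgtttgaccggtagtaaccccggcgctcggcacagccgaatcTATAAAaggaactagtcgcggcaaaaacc
Plin2, chr4:86670060-86670309: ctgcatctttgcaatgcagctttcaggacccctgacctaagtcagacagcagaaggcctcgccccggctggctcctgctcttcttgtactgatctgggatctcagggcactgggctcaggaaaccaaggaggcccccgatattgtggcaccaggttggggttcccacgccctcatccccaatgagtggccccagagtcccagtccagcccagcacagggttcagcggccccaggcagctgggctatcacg
Olr1, chr6:129507166-129507415: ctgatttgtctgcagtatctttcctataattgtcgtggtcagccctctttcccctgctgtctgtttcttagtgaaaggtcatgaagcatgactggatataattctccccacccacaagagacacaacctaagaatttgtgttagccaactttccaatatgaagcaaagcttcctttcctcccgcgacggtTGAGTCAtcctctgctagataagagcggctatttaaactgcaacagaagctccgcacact
On both strands 6 motifs were searched: the E-box CACGTG, present in 6.02% of 32851 RefSeq promoters of this length, the M-box core CATGTG in 12.3%, the AP-1 motif TGANTCA in 6.75%, an NF-kB motif (GGGA, any 4 bases, then CC) in 17.6%, the PU.1 core GAGGAAGT in 2.44% and the TATA box TATAAA in 12.4%. The Abca1 stretch holds CACGTG 147 bases and TATAAA 29 bases before the start, the Olr1 stretch holds TGAGTCA 60 bases before the start, and in the Plin2 stretch none of these letters was found. A match describes these letters only.

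Which genes differed between the libraries was asked class by class. A gene is called higher or lower when the ratio of its levels, 10% Tet2-/- BMT over 10% Tet2+/+ BMT with 10 CPM added to each, passes 1.5-fold, among genes with 50 CPM in either library and 100 UMIs over both. Printed folds carry no such addition. In macrophage-like cells 7 of the 10 genes could be called, and 0 were higher and 0 lower, beside 0.683% of 2780 genes higher and 1.44% lower. Fabp5 lay nearest above at a fold of 1.498 (1.37 to 1.63) and Lpl nearest below at 0.676 (0.624 to 0.732). The Fabp5 level of this class was below that of free RNA in 10% Tet2-/- BMT. In 10% Tet2+/+ BMT the level of 112.6 CPM lay within the free RNA interval of 105.6 to 135.7 CPM. Free RNA held more Fabp5 in 10% Tet2-/- BMT. Apoe was at 1.21 (1.20 to 1.21), Abca1 at 1.20 (1.12 to 1.30), Cd36 at 1.06 (0.948 to 1.19), Lgals3 at 0.790 (0.762 to 0.820) and Plin2 at 0.741 (0.675 to 0.813). Their median log2 ratio was 0.08, and that of all callable genes was -0.02. Of the 1431 Lpl UMIs of 10% Tet2+/+ BMT, 5 cells held 29.8%, against 15.4% of 1080 in 10% Tet2-/- BMT. With the class limited to the cluster led by C1qa, an alternative chosen after seeing the data, Apoe was at 34720 CPM in 10% Tet2-/- BMT and 28240 CPM in 10% Tet2+/+ BMT and again 0 genes were called. Finer clusters (Leiden resolution 2) or clustering each library alone put Fabp5 past 1.5-fold, and leaving out cells whose doublet score was in the top 8% put Lpl below it, so 1 gene was called under each.

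In monocyte-like cells 5 genes could be called, and 1 was higher and 0 lower, beside 1.36% higher and 1.22% lower of 2943 genes. That gene was Fabp5, at 298.8 CPM (290.6 to 307.3) in 10% Tet2-/- BMT and 160.6 CPM (153.6 to 167.8) in 10% Tet2+/+ BMT, a fold of 1.86 (1.77 to 1.96). Of the 2 clusters of the class, cells led by Fn1 had 217 CPM in 10% Tet2-/- BMT and 113.5 CPM in 10% Tet2+/+ BMT, and the cycling cluster led by Stmn1, with 284 cells in 10% Tet2-/- BMT and 141 in 10% Tet2+/+ BMT, had 392.2 CPM in 10% Tet2-/- BMT and 267 CPM in 10% Tet2+/+ BMT, just inside the limit. With Y-carrying cells of both libraries, of which only 11 were from 10% Tet2-/- BMT, Fabp5 was not called, at a log2 ratio of 0.53. Thinned to 1000 UMIs, 18.4% of monocyte-like cells of 10% Tet2-/- BMT and 9.32% of those of 10% Tet2+/+ BMT had a Fabp5 UMI, against 1.53% of B cell-like cells in 10% Tet2-/- BMT and 1.12% in 10% Tet2+/+ BMT. Fabp5 in free RNA moved with this difference, at 240.2 CPM in 10% Tet2-/- BMT and 119.9 CPM in 10% Tet2+/+ BMT; haemoglobin, which free RNA carried at 4536 CPM in 10% Tet2-/- BMT and 1868 CPM in 10% Tet2+/+ BMT, was at 32.7 CPM in 10% Tet2-/- BMT and 14.3 CPM in 10% Tet2+/+ BMT in monocyte-like cells. The other 4 callable genes were between the limits, with Lpl at a fold of 1.40 (1.26 to 1.55) and Plin2 at 0.745 (0.698 to 0.795). The median log2 ratio of the 5 was 0.22, against 0.05 over all callable genes.

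In 6 further classes, genes called higher were counted alone. Fabp5 was 1 of 4 callable genes in dendritic-like cells, beside 0.894% of all callable genes, at 142.5 CPM in 10% Tet2-/- BMT and 83.2 CPM in 10% Tet2+/+ BMT, where 5 cells held 44.5% of its UMIs in 10% Tet2-/- BMT and 54.2% in 10% Tet2+/+ BMT. It was 1 of 5 in osteoclast-like cells, beside 2.14%, at 1016 CPM in 10% Tet2-/- BMT and 587 CPM in 10% Tet2+/+ BMT, where 5 cells held 49.9% in 10% Tet2-/- BMT and 75.3% in 10% Tet2+/+ BMT. In T cell-like cells 2 of 3 were called, beside 1.66%: Fabp5 at 118.5 CPM in 10% Tet2-/- BMT and 53.3 CPM in 10% Tet2+/+ BMT, where 5 cells held 46.7% in 10% Tet2-/- BMT and 18.1% in 10% Tet2+/+ BMT, and Apoe at a fold of 1.71 (1.66 to 1.75). Few cells thus held much of Fabp5 in these classes. Free RNA held Fabp5 at 240.2 CPM in 10% Tet2-/- BMT and 119.9 CPM in 10% Tet2+/+ BMT. This was above its levels in dendritic-like and T cell-like cells, and its part in these calls was not tested. Apoe was 1 of 3 in immature neutrophil-like cells, beside 3.27%, at a fold of 1.63 (1.53 to 1.75). Its levels there, 265.5 CPM in 10% Tet2-/- BMT and 162.7 CPM in 10% Tet2+/+ BMT, were the lowest of the classes ranked. Free RNA held more, at 7035 CPM in 10% Tet2-/- BMT and 4982 CPM in 10% Tet2+/+ BMT, also more than T cell-like cells. The median log2 ratio of all callable genes of the immature class was 0.17, against 0.67 for Apoe. The part of either in these calls was not tested. Olr1 was 1 of 5 in the cluster led by Siglecf, beside 1.42%, at a fold of 1.97 (1.60 to 2.41). In B cell-like cells 0 of 3 were called, beside 1.67%. In neutrophil-like cells Fabp5 was not called, at 69.2 CPM in 10% Tet2-/- BMT and 78.9 CPM in 10% Tet2+/+ BMT, a fold of 0.878 (0.823 to 0.936). Whether these folds differ between classes was not tested.

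Non-classical monocyte-like cells had 7 callable genes, of which 2 were higher and 0 lower, beside 1.19% higher and 1.19% lower of 2952 genes. Apoe was at a fold of 1.78 (1.74 to 1.82) and Lpl, with 54.3 CPM in 10% Tet2-/- BMT and 31.8 CPM in 10% Tet2+/+ BMT, at 1.71 (1.36 to 2.16). Lpl was not called by the mean of per-cell CPM, and neither gene was with Y-carrying cells of both libraries. Nor was Lpl called after thinning to 1000 UMIs, where too few of its UMIs remain to reach the minimum for a call. Thinning therefore cannot decide whether Lpl differed in this class. Apoe was spread over these cells: all 265 cells of 10% Tet2-/- BMT and 356 of 357 of 10% Tet2+/+ BMT had it, with a median of 53 UMIs in 10% Tet2-/- BMT and 27 UMIs in 10% Tet2+/+ BMT. Of the Lpl UMIs, 5 cells held 27.2% in 10% Tet2-/- BMT and 44.8% in 10% Tet2+/+ BMT. Free RNA moved with both, holding more Apoe in 10% Tet2-/- BMT as given above and Lpl at 64.4 CPM in 10% Tet2-/- BMT and 25.2 CPM in 10% Tet2+/+ BMT, and haemoglobin was at 33.3 CPM in 10% Tet2-/- BMT and 20.4 CPM in 10% Tet2+/+ BMT in this class. Its cells carried neutrophil transcripts too, with 12 of 12 listed neutrophil markers at 10 CPM or more and a sum of 87460 CPM in 10% Tet2-/- BMT and 86810 CPM in 10% Tet2+/+ BMT, against 13490 CPM in 10% Tet2-/- BMT and 16870 CPM in 10% Tet2+/+ BMT in macrophage-like cells. Their part in the result was not tested. Fabp4, which had most of its UMIs in this class, was at a fold of 0.875 (0.749 to 1.02), so no difference was detectable at this depth. The median log2 ratio of the 7 genes was 0.19, against 0.01 over all callable genes.

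Neutrophil-like cells had 5 callable genes, of which 1 was higher and 0 lower, beside 2.13% higher and 2.17% lower of 2161 genes. Olr1 was the one, at a fold of 2.27 (2.07 to 2.49). Olr1 could not be called where Xist-carrying cells of 10% Tet2-/- BMT were set against Y-carrying cells of 10% Tet2+/+ BMT. It was at 36.2 CPM (32.1 to 40.6) in the former and 23.3 CPM (21.04 to 25.7) in the latter. Both levels were below the minimum for a call, with intervals apart. Their log2 ratio of 0.47 was also inside the limit. With all cells, Apoe, Fabp5, Plin2 and Lgals3 had folds between 0.878 and 1.11. Cells were spread differently over the clusters: the 2 clusters richest in Olr1, led by Ccl3 and Acod1, held 643 and 1013 cells in 10% Tet2-/- BMT but 227 and 752 in 10% Tet2+/+ BMT, where those led by Jaml and Csf3r were the largest with 1321 and 1085 cells. Within the cluster led by Csf3r, Olr1 was at 65.7 CPM (55.0 to 77.8) in 10% Tet2-/- BMT and 47.5 CPM (40.8 to 55.1) in 10% Tet2+/+ BMT, and within that led by Jaml at 28.4 CPM (22.7 to 35.0) in 10% Tet2-/- BMT and 13.8 CPM (10.8 to 17.3) in 10% Tet2+/+ BMT.

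**Figure D3:**
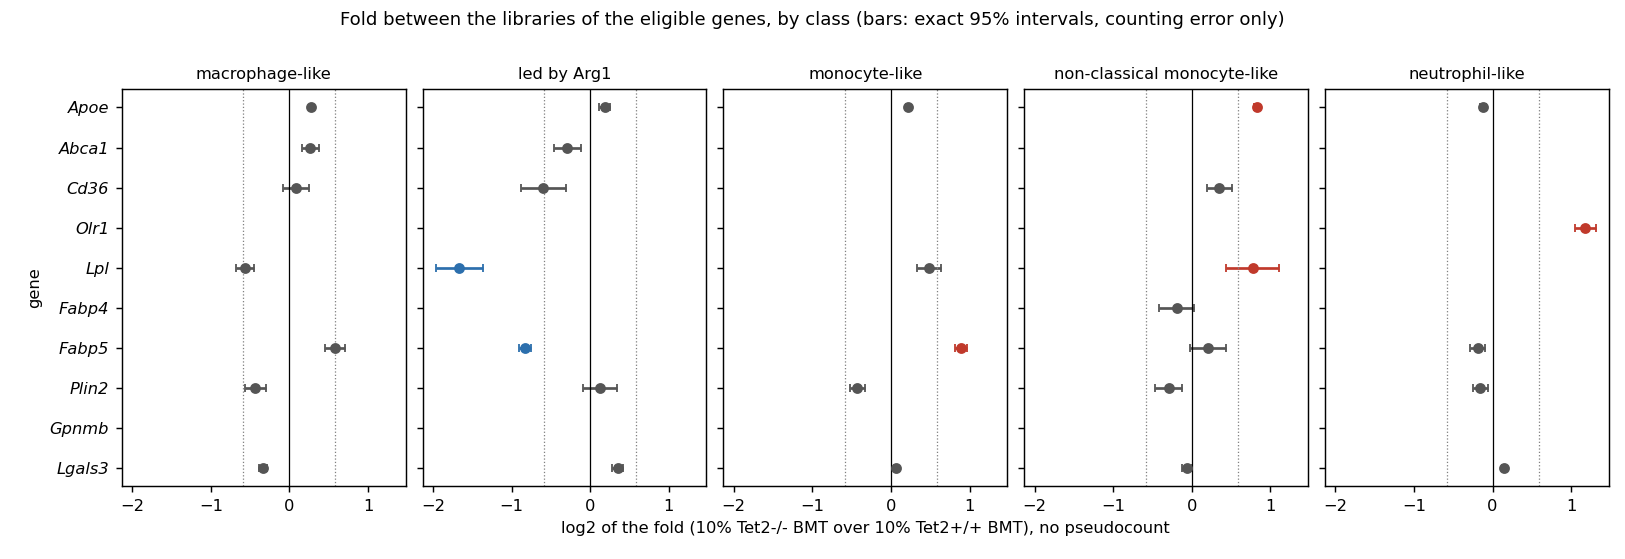
Log2 of the fold of each callable gene, 10% Tet2-/- BMT over 10% Tet2+/+ BMT, in 5 cell classes, with exact 95% intervals for counting error; dotted lines mark 1.5-fold, red points are called higher, blue points lower, and genes without a point could not be called. No gene is called in macrophage-like cells, Olr1 is at 2.27-fold in neutrophil-like cells and Lpl at 0.315-fold in the cluster led by Arg1.

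The cluster led by Arg1 had 7 callable genes, of which 0 were higher and 2 lower. This cluster is uneven between the libraries, and 7.8% of 2899 genes were higher and 7.52% lower. Lpl was at 55.5 CPM (48.1 to 63.7) in 10% Tet2-/- BMT and 176.3 CPM (151.3 to 204.3) in 10% Tet2+/+ BMT, a fold of 0.315 (0.256 to 0.387), but 1 cell held 107 of the 177 Lpl UMIs of 10% Tet2+/+ BMT. Lpl was not called with Y-carrying cells of both libraries. Nor was it called after thinning to 1000 UMIs, but too few Lpl UMIs remain there to reach the minimum for a call. Thinning therefore cannot decide whether Lpl differed in this cluster. Fabp5 was at a fold of 0.562 (0.533 to 0.593). Abca1, Cd36, Plin2, Lgals3 and Apoe were between the limits, at folds of 0.818 to 1.27 apart from Cd36 at 0.662 (0.545 to 0.807). Of the Apoe UMIs in this cluster, 5 cells held 36.9% in 10% Tet2-/- BMT and 70.6% in 10% Tet2+/+ BMT. For Cd36, 5 cells held 30.3% in 10% Tet2-/- BMT and 75.8% in 10% Tet2+/+ BMT. The median log2 ratio was -0.28, against -0.01 over all callable genes.

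The cluster held cells of different kinds, which was seen after its values were known. Cells with a Ccr7 UMI and no Arg1 UMI, 53 of 313 in 10% Tet2-/- BMT and 30 of 79 in 10% Tet2+/+ BMT, carried Fscn1 at 868.8 CPM in 10% Tet2-/- BMT and 1281 CPM in 10% Tet2+/+ BMT. Ccr7 and Fscn1 are markers of migrating dendritic cells. Cells with Arg1 and no Ccr7 numbered 119 in 10% Tet2-/- BMT and 30 in 10% Tet2+/+ BMT, and carried Spp1 at 6051 CPM in 10% Tet2-/- BMT and 4719 CPM in 10% Tet2+/+ BMT. Fabp5 belonged mainly to the Ccr7 cells, at 3932 CPM (3804 to 4064) in 10% Tet2-/- BMT and 3634 CPM (3461 to 3814) in 10% Tet2+/+ BMT. The Arg1 cells had Fabp5 at 123.1 CPM (104.5 to 144.1) in 10% Tet2-/- BMT and 1146 CPM (1027 to 1275) in 10% Tet2+/+ BMT. Ccr7 cells made up 16.9% of the cluster in 10% Tet2-/- BMT and 37.97% in 10% Tet2+/+ BMT, a share that moved with its Fabp5 level. Of the Fabp5 UMIs in the Arg1 cells of 10% Tet2+/+ BMT, 5 cells held 75.7%.

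Abca1, Plin2, Apoe and Lgals3 were higher in the Arg1 cells than in the Ccr7 cells. Abca1 was at 503.6 CPM (465.2 to 544.4) in the Arg1 cells of 10% Tet2-/- BMT and 871.3 CPM (768 to 984.5) in those of 10% Tet2+/+ BMT, against 36.6 CPM in 10% Tet2-/- BMT and 15.5 CPM in 10% Tet2+/+ BMT in the Ccr7 cells. Plin2 was at 393.2 CPM (359.3 to 429.4) in 10% Tet2-/- BMT and 450.9 CPM (377.5 to 534.3) in 10% Tet2+/+ BMT in the Arg1 cells, against 37.7 CPM in 10% Tet2-/- BMT and 24.4 CPM in 10% Tet2+/+ BMT in the Ccr7 cells. Apoe was at 3448 CPM in the Arg1 cells of 10% Tet2-/- BMT and 2380 CPM in those of 10% Tet2+/+ BMT, against 362.8 CPM in 10% Tet2-/- BMT and 292.2 CPM in 10% Tet2+/+ BMT in the Ccr7 cells. Of the Apoe UMIs in the Arg1 cells, 5 cells held 57.5% in 10% Tet2-/- BMT and 68.8% in 10% Tet2+/+ BMT. Lgals3 was at 2485 CPM in the Arg1 cells of 10% Tet2-/- BMT and 3268 CPM in those of 10% Tet2+/+ BMT, against 773.4 CPM in 10% Tet2-/- BMT and 351.9 CPM in 10% Tet2+/+ BMT in the Ccr7 cells. Cells with neither UMI, 136 of 313 in 10% Tet2-/- BMT and 17 of 79 in 10% Tet2+/+ BMT, had Abca1 at 279.7 CPM in 10% Tet2-/- BMT and 421.9 CPM in 10% Tet2+/+ BMT and Plin2 at 249.7 CPM in 10% Tet2-/- BMT and 338.4 CPM in 10% Tet2+/+ BMT, between the Arg1 and the Ccr7 cells. They had Lgals3 at 3141 CPM in 10% Tet2-/- BMT, above the Arg1 cells, and 2720 CPM in 10% Tet2+/+ BMT. Their Apoe was at 2576 CPM in 10% Tet2-/- BMT and at 5034 CPM in 10% Tet2+/+ BMT, there above the Arg1 cells but with 76.6% of its UMIs in 1 cell. Haemoglobin UMIs also read high in the cluster, at 15150 CPM in 10% Tet2-/- BMT and 10170 CPM in 10% Tet2+/+ BMT, with 21 cells above 1% haemoglobin in 10% Tet2-/- BMT and 1 in 10% Tet2+/+ BMT. With cells above 1% haemoglobin left out, Lpl was at a log2 ratio of -1.46 and Fabp5 at -0.77, against -1.51 and -0.83 with them, and Cd36 passed the limit too at -0.59.

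**Figure D4:**
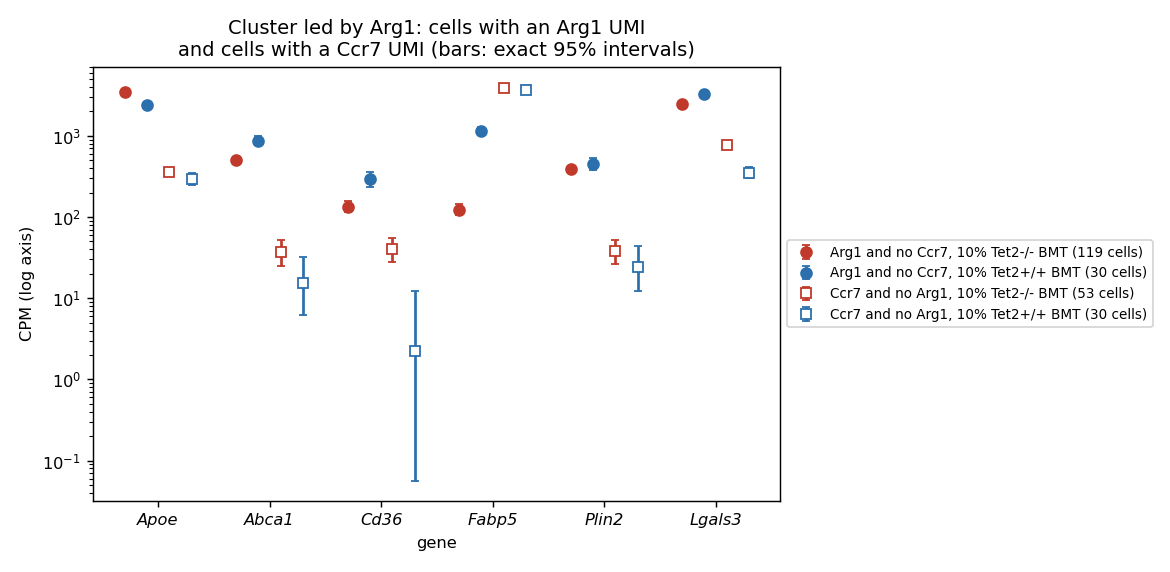
Level in CPM (log axis, exact 95% intervals) of 6 genes in cells of the cluster led by Arg1, split into cells with Arg1 and no Ccr7 UMIs (circles) and cells with Ccr7 and no Arg1 UMIs (squares), with 10% Tet2-/- BMT in red and 10% Tet2+/+ BMT in blue. Of these cells, those with Ccr7 have more Fabp5, at 3932 CPM in 10% Tet2-/- BMT and 3634 CPM in 10% Tet2+/+ BMT, and those with Arg1 have more Abca1 and Plin2.

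Cells of the 10% Tet2-/- BMT library carried Xist, the RNA of the inactive X chromosome, or Y-linked transcripts, both or neither, and no macrophage-like cell of 10% Tet2+/+ BMT carried Xist, so transplant genotype and sex-linked transcripts moved together between the libraries. Within 10% Tet2-/- BMT, 158 macrophage-like cells had Y-linked and no Xist UMIs, and 339 had Xist and no Y-linked UMIs. Of 7 callable genes, 2 were higher and 1 lower in the Y-carrying cells, beside 3.62% of 2817 genes higher and 5.5% lower. Apoe was at 49060 CPM in the Y-carrying and 27450 CPM in the Xist-carrying cells, a fold of 1.79 (1.77 to 1.80). Cells of the same library with neither kind of transcript, 190 in number, had Apoe at 46950 CPM. Cd36 was at 138.3 CPM in the Y-carrying and 47.4 CPM in the Xist-carrying cells, a fold of 2.92 (2.43 to 3.51). Plin2 was at 48.4 CPM in the Y-carrying and 122.4 CPM in the Xist-carrying cells, a fold of 0.395 (0.314 to 0.493). Abca1 was at 253.8 CPM in the Y-carrying and 166.7 CPM in the Xist-carrying cells, which with 10 CPM added is just inside the limit.

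These differences lay inside 1 library. Apoe, Cd36 and Plin2 were further from 1 there than between the libraries, where their folds were 1.21, 1.06 and 0.741. Markers moved with them: the 17 macrophage markers summed to 23400 CPM in Y-carrying and 16640 CPM in Xist-carrying cells, and the 11 monocyte markers to 790.9 CPM in Y-carrying and 2232 CPM in Xist-carrying cells. Their part in the result was not tested. Of genes chosen after their values were seen, the monocyte receptor gene Ccr2 was at 166.4 CPM in Y-carrying and 633.8 CPM in Xist-carrying cells. Timd4, a marker of long-lived resident macrophages, had 13 UMIs in Y-carrying and 1 UMI in Xist-carrying cells. Depth was close, at a median of 11547 UMIs in Y-carrying and 12315 UMIs in Xist-carrying cells. Y-carrying macrophage-like cells of 10% Tet2+/+ BMT, 438 in number, had Apoe at 26740 CPM, Cd36 at 77.6 CPM, Plin2 at 137.6 CPM and Ccr2 at 631.6 CPM, each closer to the level of the Xist-carrying than of the Y-carrying cells of 10% Tet2-/- BMT. Sex, origin and state of these cells cannot be told apart here. Against them, Y-carrying cells of 10% Tet2-/- BMT had 6 of 7 callable genes past the limit: Apoe, Abca1, Cd36 and Fabp5 were higher, beside 3.7% of 2890 genes, and Plin2 and Lgals3 lower, beside 8.89%. Compared with those same cells, the Xist-carrying ones of 10% Tet2-/- BMT had 1 of 7, Cd36, which was lower, beside 1.8% of 2839 genes lower and 0.423% higher. In neutrophil-like cells the same comparison of Xist-carrying with Y-carrying cells gave Olr1 a log2 ratio of 0.47 in place of 0.93. Its levels there were below the minimum for a call. Of the other genes, 0 of 4 callable ones were called, beside 1.98% of 2174 genes higher and 6.49% lower. In non-classical monocyte-like cells only 13 cells of 10% Tet2-/- BMT were Y-carrying, and against the Y-carrying cells of 10% Tet2+/+ BMT they had Apoe at a log2 ratio of -0.22 and Lpl at -0.12.

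**Figure D5:**
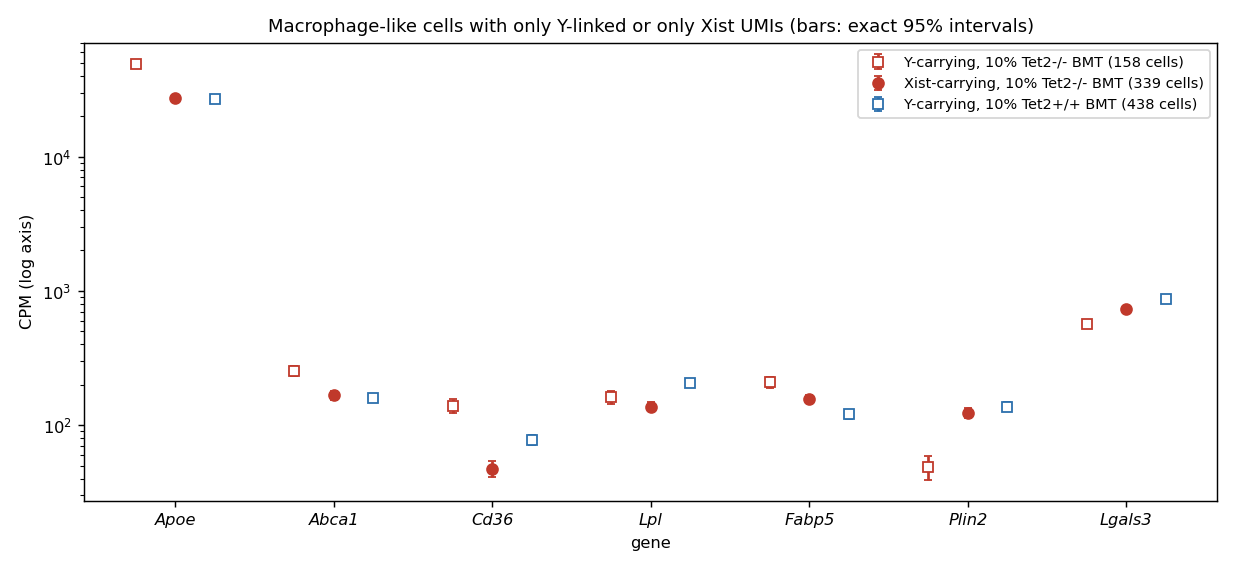
Level in CPM (log axis, exact 95% intervals) of the 7 callable genes in macrophage-like cells: Y-carrying cells of 10% Tet2-/- BMT (red squares), Xist-carrying cells of the same library (red circles) and Y-carrying cells of 10% Tet2+/+ BMT (blue squares). Apoe and Cd36 are highest and Plin2 lowest in the Y-carrying cells of 10% Tet2-/- BMT, at 49060, 138.3 and 48.4 CPM.

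Other genes of lipid handling were taken from 6 lists. In macrophage-like cells none of their callable genes passed 1.5-fold between the libraries: 0 of 9 for cholesterol efflux and LXR targets, 0 of 8 for lipid uptake and scavenger receptors, 0 of 2 for lipid droplets and lipolysis, 0 of 2 for PPAR factors and fatty acid oxidation and 0 of 14 for Trem2-associated and lysosome genes, while no gene of cholesterol synthesis could be called. The list medians lay between -0.13 and 0.07 on the log2 scale, against -0.02 over all callable genes. Trem2, a lipid-sensing receptor of macrophages and 1 of the markers that named the class, was at 607.2 CPM in 10% Tet2-/- BMT and 433.3 CPM in 10% Tet2+/+ BMT, a fold of 1.40 (1.34 to 1.47). The tetraspanin gene Cd63 was at a fold of 1.42 (1.37 to 1.48) and the lysosomal protease gene Ctsd at 1.37 (1.34 to 1.41). Abcg1, the partner of Abca1 in cholesterol export, was at 76.4 CPM in 10% Tet2-/- BMT and 95.2 CPM in 10% Tet2+/+ BMT, and Apoc2, an apolipoprotein that activates Lpl, at 80.9 CPM in 10% Tet2-/- BMT and 102.2 CPM in 10% Tet2+/+ BMT. Lrp1, an endocytic receptor that binds Apoe, was at 126.9 CPM in 10% Tet2-/- BMT and 153.4 CPM in 10% Tet2+/+ BMT, and the scavenger receptor gene Stab1 at 187.9 CPM in 10% Tet2-/- BMT and 140 CPM in 10% Tet2+/+ BMT.

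The genes most like each of the 10 were sought by Pearson correlation of log2(CPM + 10) over 55 points, each a cluster in 1 library, among 6219 genes. The points share libraries, and clusters of a class share cell type and depth, so these values are descriptions. Apoe was most like Lgmn (r = 0.93), Itgb5 (0.92) and Rnase4 (0.90), and Abca1 like Epb41l2 (0.82), Creb5 (0.81) and Tmcc3 (0.81). Cd36 was most like Eno3 (0.80), Cyth3 (0.80) and Tmem51 (0.78), and Fabp4 like Slc12a2 (0.84), Eno3 (0.79) and Ace (0.76). Eno3 and Ace are among the markers that named the non-classical monocyte-like class. Olr1 was most like Tnfrsf23 (0.89), Arih2 (0.87) and Slc7a11 (0.87), and Lpl like Npc2 (0.91), Renbp (0.90) and Ccl9 (0.90). Fabp5 was most like Cstb (0.79), Ccl9 (0.77) and Atox1 (0.76), Plin2 like Surf4 (0.74), Rab1a (0.73) and Ifitm3 (0.73), and Lgals3 like Ifitm3 (0.77), Adam15 (0.71) and Ggh (0.70). Among the 10 themselves the highest correlations were Plin2 with Lgals3 (0.81), Lpl with Fabp5 (0.72) and Cd36 with Fabp4 (0.70).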

How the data were processed

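Single-cell RNA sequencing counts were read from 2 libraries, 1 of 10% Tet2-/- BMT and 1 of 10% Tet2+/+ BMT. The deposited matrices hold raw UMI counts per gene and barcode, not normalised by the authors, and list unfiltered barcodes. Per the submitters' processing notes, reads were processed with Cell Ranger 6.1.2 on mm10, while the file headers name Cell Ranger version 4; the labels name the Chromium Next GEM 3' kit, version 3.1.

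Cells were kept at 500 UMIs, 250 genes and at most 10% mitochondrial UMIs. They were normalised, reduced to 2000 variable genes and 30 principal components and clustered (20 neighbours, Leiden resolution 1, seed 1) with Python 3.11.15, scanpy 1.11.5 and leidenalg 0.10.2. The 10 genes were left out of the variable genes and of all marker lists. To be named from 1 of 20 marker lists, a cluster needed 3 or more markers found in 10% of its cells. These had to be higher there by 0.5 on the log2 scale. It stayed unnamed where another list held more of its 10 leading genes, gland secretory transcripts led, or it was shallow without a leading marker. Unnamed clusters are called by their leading gene. Those led by Siglecf, Ltf, Ccl8 and Arg1 had 3 or more markers of 1 list but more leading genes from another. For Arg1 the best list was erythroid, for the others neutrophil. Names rebuilt in this way may differ from the study's own. The 10 genes, the lists and the naming thresholds were chosen with earlier results of these data known.

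UMIs were summed per class and library. Levels have exact Poisson intervals, shares exact binomial (Clopper-Pearson) intervals and folds exact conditional binomial intervals, at 95%, computed with scipy 1.17.1. Genes at 50 CPM in either library and 100 UMIs over both could be called past 1.5-fold, with 10 CPM added. Beside the 10 genes and Tet2, the genes named were the 3 most correlated with each and up to 3 of each pathway list with the largest change in macrophage-like cells; genes that lead a cluster or come from a marker list are named too, and any other is said to be chosen after its values were seen. Scrublet called 0 cells of 10% Tet2-/- BMT and 346 of 10% Tet2+/+ BMT as doublets, so its calls were not used and doublets were not removed. The scripts were tested on simulated data. Alternatives were 16 planned and 2 added after seeing the data.

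Of all UMIs, 90.8% in 10% Tet2-/- BMT and 87.2% in 10% Tet2+/+ BMT lay in kept cells. Gene positions are from GENCODE M21 and promoters from the RefSeq table of GRCm38.p6, which held 7 of the 10 genes. A search with blastn 2.17.0 for transcripts alike to the last 500 bases of each gene found 0 at 95% identity over 90 bases.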

Additional observations from a re-analysis of the deposited data

Results flagged for a closer look

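Lpl and Fabp5 pointed in opposite directions between cell classes under the same contrast of the libraries. The log2 ratio of Lpl, 10% Tet2-/- BMT over 10% Tet2+/+ BMT, was 0.62 in non-classical monocyte-like cells and -1.51 in the cluster led by Arg1. For Fabp5 it was 0.86 in monocyte-like cells and -0.83 in the cluster led by Arg1. The difference between classes was not tested, since each group had 1 library. In the cluster led by Arg1, 1 cell held 107 of the 177 Lpl UMIs of 10% Tet2+/+ BMT, and the share of Ccr7 cells was 16.9% in 10% Tet2-/- BMT and 37.97% in 10% Tet2+/+ BMT; their part in the result was not tested.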

How the results depend on the processing

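No paired analysis was possible because each group had 1 library and no result comes from a test. Among 122 alternative values of the 7 counts of genes, 108 stayed within 1.5 times the count reported. This compares how many genes were called, not which ones. Limiting monocyte-like cells to Y-carrying ones left the count in that range, although Fabp5 was then not called. The same limit in non-classical monocyte-like cells also left the count in range, although neither Apoe nor Lpl was called. In macrophage-like cells, where 0 genes were called, the count was 1 at Leiden resolution 2, 1 with each library clustered alone, 1 without the top 8% of cells by doublet score, 1 where Xist-carrying cells (10% Tet2-/- BMT) were set against Y-carrying ones (10% Tet2+/+ BMT) and 6 for Y-carrying cells of both libraries. In the cluster led by Arg1 (2 called) it was 1 after thinning to 1000 UMIs, 4 with a minimum of 10 CPM and 5 for Xist-carrying against Y-carrying cells. Monocyte-like cells (1 called) had 3 with each library clustered alone. Non-classical monocyte-like cells (2 called) had 1 by the mean of per-cell CPM and 1 after thinning, and neutrophil-like cells (1 called) had 0 for Xist-carrying against Y-carrying cells. After thinning, 3 genes in each library, in place of 5, were higher in macrophage-like than in neutrophil-like cells. For Y-carrying cells of both libraries, the log2 ratios of Apoe and Lpl in non-classical monocyte-like cells reversed to -0.22 and -0.12, against 0.83 and 0.62 with all cells. Of 800 values for single genes, 566 stayed close, 232 moved and 2 reversed. Apart from genes that fell short of the minima, the cause of these shifts was not tested. After thinning, Lpl fell short of the UMI minimum in non-classical monocyte-like cells and in the cluster led by Arg1. Olr1 fell short of the CPM minimum in neutrophil-like cells for Xist-carrying against Y-carrying cells. The cluster led by Arg1 gave no value at Leiden resolution 2, at 1000 UMIs per cell or with each library clustered alone, and the non-classical class gave none at resolution 0.5. Gpnmb and, outside non-classical monocyte-like cells, Fabp4 had too few UMIs to compare.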

Other observations

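Genes of the lipid lists that passed 1.5-fold outside macrophage-like cells are given here, chosen after their values were seen. In neutrophil-like cells G0s2, an inhibitor of the triglyceride lipase of lipid droplets, was at 3562 CPM in 10% Tet2-/- BMT and 2235 CPM in 10% Tet2+/+ BMT, a fold of 1.59 (1.58 to 1.61). Spp1, which encodes osteopontin, was at 200.2 CPM in 10% Tet2-/- BMT and 59.0 CPM in 10% Tet2+/+ BMT in the same cells, a fold of 3.39 (3.21 to 3.59). G0s2 was 1 of 5 and Spp1 1 of 10 callable genes of their lists, beside 2.13% of 2161 genes higher. For cholesterol efflux and for lipid uptake, 0 of 4 and 0 of 3 were called. G0s2 is a leading gene of the neutrophil-like cluster led by Acod1, with 1013 cells in 10% Tet2-/- BMT and 752 in 10% Tet2+/+ BMT. Its part in the fold was not tested. In monocyte-like cells Fdps, an enzyme of cholesterol synthesis, was at 97.8 CPM in 10% Tet2-/- BMT and 54.5 CPM in 10% Tet2+/+ BMT, a fold of 1.80 (1.64 to 1.97). It was 1 of 2 callable genes of its list, beside 1.36% of 2943 genes higher. The other lists had 0 called of 6, 8, 2, 4 and 11 callable genes. The cluster led by Arg1 had 3 list genes higher and 7 lower, among 8, 7, 4, 3, 15 and 3 callable genes of the 6 lists and beside 7.8% of all callable genes higher and 7.52% lower: Apoc2, G0s2 and Dgat2, which makes triglyceride, had folds of 2.19, 1.75 and 1.77, and Abcg1, Cxcl16, Acadm, Itgax, Axl, Ctsl and Idi1 had folds between 0.461 and 0.654.

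Barcodes removed by the filters, 248 in 10% Tet2-/- BMT and 489 in 10% Tet2+/+ BMT with 500 or more UMIs, also held these genes. Apoe was there at 11730 CPM in 10% Tet2-/- BMT and 10220 CPM in 10% Tet2+/+ BMT, Abca1 at 122.2 CPM in 10% Tet2-/- BMT and 115.3 CPM in 10% Tet2+/+ BMT, and Lpl at 19.3 CPM in 10% Tet2-/- BMT and 73.4 CPM in 10% Tet2+/+ BMT. In barcodes with 51 to 200 UMIs Fabp5 was at 157.1 CPM in 10% Tet2-/- BMT and 115.2 CPM in 10% Tet2+/+ BMT.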
